A study of Mus musculus with 72 samples.

Results

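The liver response to a diet without methionine and choline was described at circadian time 8 (CT08, 8 h into the subjective day) from 6 of the 72 libraries of the series, chosen by their labels: 3 on the methionine- and choline-deficient (MCD) diet and 3 on a control diet of equal energy. All 6 came from C57BL/6J mice of 8 to 12 weeks, which were housed alone, kept for 10 days in a light-dark cycle and then in constant darkness on day 11 of the diet, when they were killed. Each diet had 2 libraries labelled male and 1 labelled female, and no genotype or drug beside the diet is labelled. Poly-A RNA from the left lobe was sequenced, and the deposited table gives raw read counts for 22823 genes, of which 20249 passed the filter on low counts. The other 30 liver libraries, taken at 5 other times, entered the fits to estimate the spread between replicates.

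Methionine is an essential amino acid and the source of S-adenosylmethionine (SAM), the methyl donor of the cell, while choline is needed to make phosphatidylcholine, the main phospholipid of the very-low-density lipoprotein particles that carry fat out of the liver. Rodents fed this diet are a common model of fatty liver with inflammation, in which fat stays in hepatocytes. A lack of an amino acid is sensed by the kinase GCN2, which raises the transcription factor ATF4, and ATF4 and its partners switch on genes through a composite element in their promoters. Oxidative stress acts through another factor, NRF2, which binds antioxidant response elements near genes of glutathione and thioredoxin metabolism.

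In the table, 2 of the 3 control columns carry the same name, and the name gives neither a replicate number. They are called control a (86.2 M counts) and control b (52.6 M counts) here, both labelled male, and the third is control 3, a female (69.6 M). MCD 1 and MCD 2 are males (64.3 and 67.4 M) and MCD 3 is a female (78.3 M). The protocol names male mice, but levels of Xist and Ddx3y went with the sex on the sample labels in all 6. Control a lay nearer to the MCD libraries than to the other controls, against its label, for 79.9% of the genes called with it left out, so results are given with and without it. The 6 libraries also differed in mt-Nd6, a mitochondrial transcript, which was at 61.8 to 80.9 CPM in control a, MCD 1 and MCD 3 and at 436 to 1038 CPM in the other three. Without control a both controls are therefore of the high kind and the MCD group holds both kinds. Levels are given as CPM, that is TMM-scaled read counts set to the same total in each library. The labels do not state that replicates are separate mice, and p-values measure the spread between these libraries.

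With all 6 libraries, 263 of 20249 genes (1.3%) were called at an adjusted p under 0.05 in edgeR's quasi-likelihood test with Benjamini-Hochberg adjustment. Of these, 111 (0.548% of genes tested) were higher and 152 (0.751%) lower on MCD. With control a left out, 1232 genes (6.08%) were called, 563 (2.78%) higher and 669 (3.3%) lower. The 2 results shared 248 genes, all with the same direction, and 15 genes were called only with control a in the fit. A change of at least 1 on the log2 scale was reached by 30 higher and 72 lower calls with all libraries, and by 238 higher and 193 lower calls without control a. Scaling by library totals alone moved the split from 42.2% higher to 62.5% higher with all libraries, and from 45.7% to 85.8% without control a, where it moved the median gene by 0.24 on the log2 scale. Changes below are relative to the TMM-scaled median gene, which lay at -0.01 with all libraries and at 0.00 without control a.

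The count of calls turned on single libraries. It was 37 without control b, 95 without control 3, 159 without MCD 1, 100 without MCD 2 and 50 without MCD 3. Control a was the only one of the 6 whose removal raised the count.

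**Figure D1:**
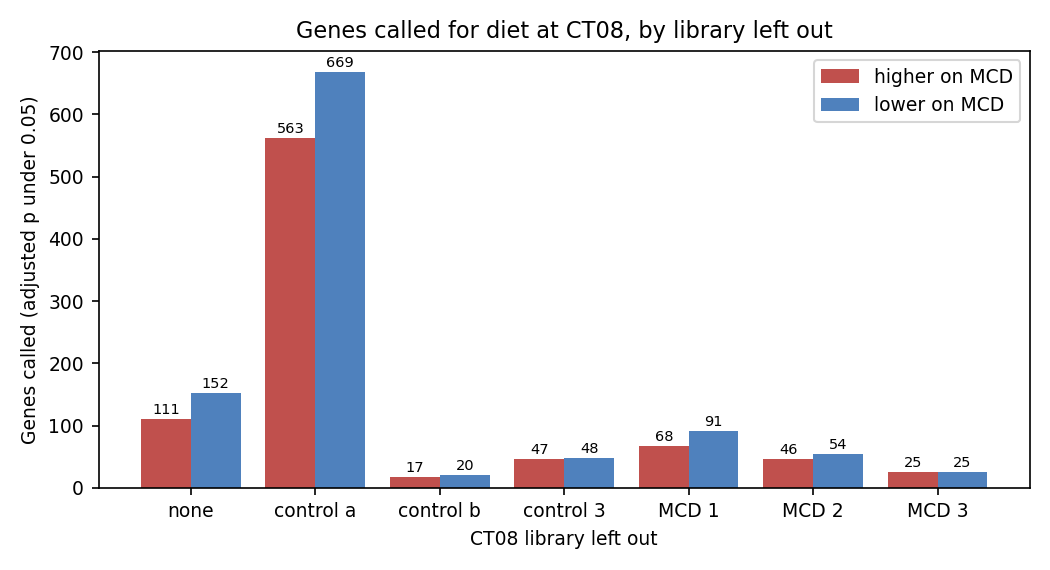
Genes called for diet at CT08 (bars, number of genes with an edgeR adjusted p under 0.05), higher and lower on MCD, with no library or 1 of the 6 CT08 libraries left out. The count was 111 higher and 152 lower with none left out and 563 higher and 669 lower without control a, while leaving out any of the other 5 gave fewer calls than none.

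The direction of the calls was also read at the other 5 times, whose libraries are not shared with CT08. Of the 263 genes called with all libraries, 219 (83.3%) differed in the same direction at all 5 other times, against 6464 of all 20249 genes (31.9%). Of the 1232 genes called without control a, 1050 (85.2%) did so, against 38.1% of all genes with the same libraries. Most of the genes called at CT08 thus had the same sign of the diet difference around the clock.

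Genes that moved with all 6 libraries came first by size. Scd1, the stearoyl-CoA desaturase that makes monounsaturated fatty acids, was at 5525, 7647 and 15461 CPM in controls a, b and 3 and at 1432, 195 and 732 CPM in MCD 1, 2 and 3. The groups did not overlap and control a sat with the controls. The fitted change was -3.52 ± 0.64 (log2, SE; edgeR adjusted p = 0.00636), and -3.78 ± 0.69 without control a. Fabp5, a fatty acid binding protein, was at 24.0, 79.3 and 78.4 CPM in the controls and at 4.63 to 6.86 CPM on MCD (-3.40 ± 0.51, edgeR adjusted p = 0.00133; -3.78 without control a). Control a was the lowest control for Fabp5 but still above each MCD library. Bcl6, a transcriptional repressor that is higher in male liver, fell from 63.7, 55.4 and 34.3 CPM to 9.70, 5.64 and 4.89 CPM (-2.91 ± 0.65, edgeR adjusted p = 0.0218; -2.84 without control a). At the other 5 times its mean diet difference was -0.41, and the difference between CT08 and those times was not called (edgeR adjusted p = 0.168, and 0.589 without control a). Chrna4, a nicotinic acetylcholine receptor subunit, was at 3.13, 23.9 and 37.3 CPM in the controls and at 1.91, 0.245 and 0.466 CPM on MCD (-4.47 ± 0.86, and -5.02 ± 0.81 without control a). Ptk6, a non-receptor tyrosine kinase, was at 0.384, 2.33 and 3.88 CPM in the controls and at no more than 0.278 CPM on MCD (-3.71 ± 0.70, and -4.21 ± 0.62 without control a).

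Pnpla3 and Pnpla5, patatin-like phospholipases that act on lipid droplets, fell as well. Pnpla3 was at 1.42, 3.82 and 44.3 CPM in controls a, b and 3 and at 0.757, 0.230 and 1.5 CPM on MCD, so that control a overlapped the MCD group. Its fitted change was -3.69 ± 0.84 (edgeR adjusted p = 0.0236), and -4.20 ± 0.82 without control a. Pnpla5 was at 0.158, 1.75 and 2.96 CPM in the controls and at 0.0631 CPM or 0 on MCD, with fitted changes of -6.20 and, without control a, -6.78. Sult3a1, a sulfotransferase of female liver, was called lower (-5.62, edgeR adjusted p = 0.0156; -5.34 without control a) on the strength of the females, at 99.2 CPM in control 3 and 2.13 CPM in MCD 3, while the males of both diets were at 0.246 CPM or less. Adgrf1 and Rd3 complete the 10 largest decreases, with -2.55 and -2.48 on the log2 scale, and -2.97 and -2.92 without control a.

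Among the increases with all libraries, AA986860, a predicted gene, was at 1.03, 0.790 and 0.919 CPM in the controls and at 4.05, 4.75 and 7.0 CPM on MCD (2.52 ± 0.37, edgeR adjusted p = 0.000903; 2.60 without control a). Peg3, a paternally expressed zinc finger gene, rose from 4.59, 15.7 and 12.8 CPM to 30.2, 32.8 and 49.9 CPM (1.76 ± 0.32, edgeR adjusted p = 0.00602; 1.40 without control a). In the exon-bin files Peg3 was at 14, 9.78 and 8.22 CPM in controls 1, 2 and 3 and at 19.9, 21.2 and 31.9 CPM on MCD, and was not called there (1.13, edgeR adjusted p = 0.0515). For both genes in the gene table control a was on the control side. Apcs, which encodes serum amyloid P component, rose from 75.9, 59.5 and 111 CPM to 240, 345 and 221 CPM (1.76 ± 0.36, edgeR adjusted p = 0.0119; 1.76 without control a). Osgin1, a target of NRF2, rose from 250, 270 and 139 CPM to 650, 974 and 433 CPM (1.64 ± 0.36, edgeR adjusted p = 0.0189; 1.66 without control a). The groups did not overlap for either gene. Aqp4, a water channel, Nlrp12, a regulator of inflammation, Kcnd1, a potassium channel, and Chpf, a chondroitin synthase subunit, rose by 1.87, 1.99, 1.85 and 1.54 on the log2 scale, and by 1.94, 2.05, 2.25 and 2.39 without control a. The other 2 of the 10 largest increases, Cyp4a31 and Plin4, belong to groups described below. Cyp4a31, Sult3a1 and the Mup, Serpina1 and glutathione transferase genes named below belong to families of similar sequence, between which reads may have been split.

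**Figure D2:**
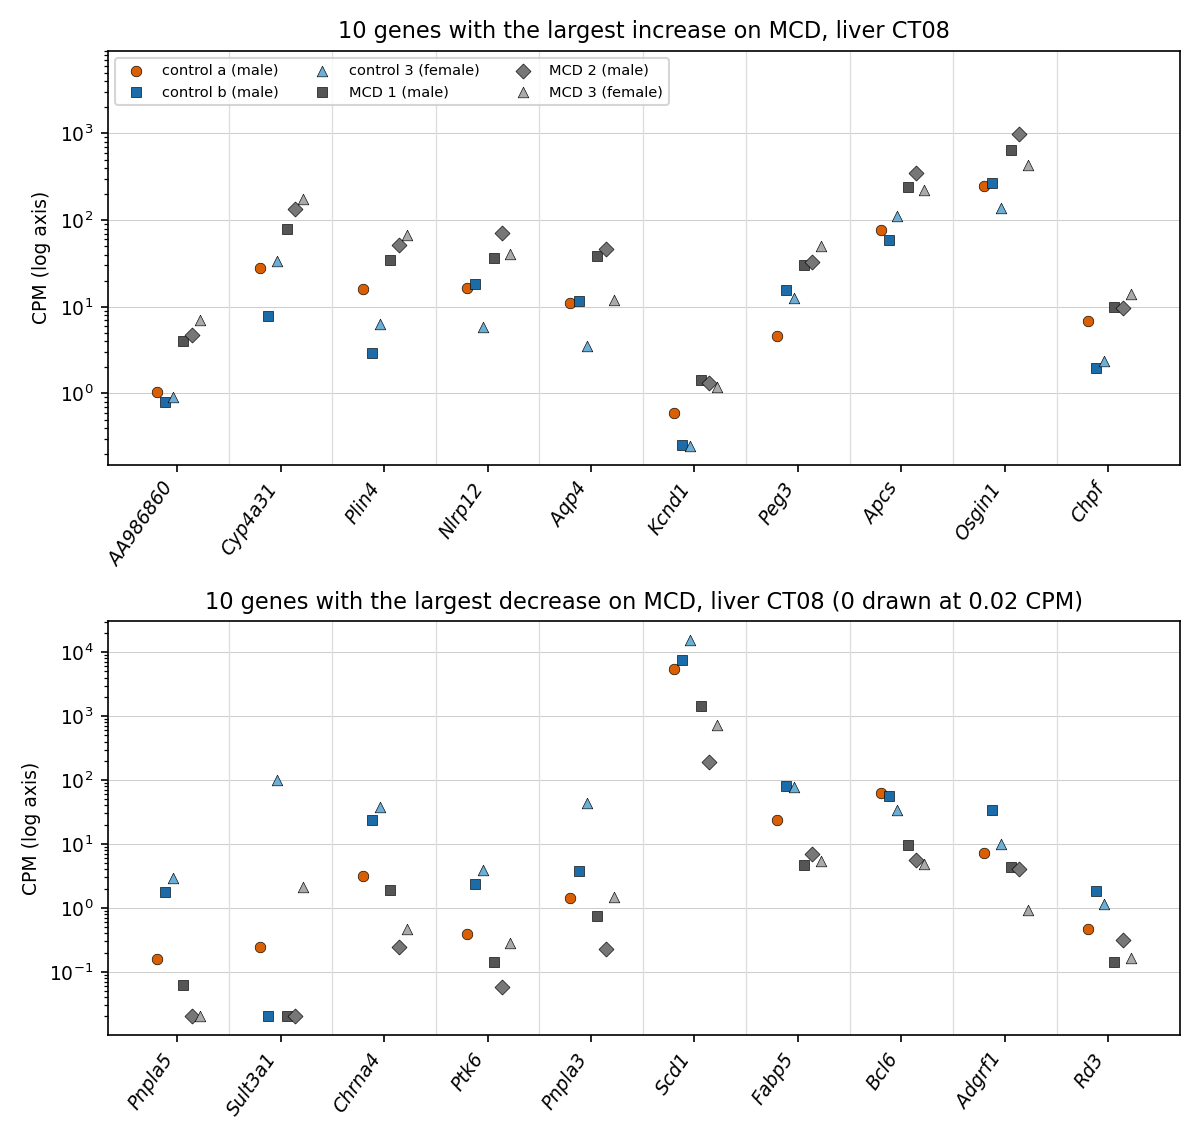
CPM (log axis) of the 10 genes with the largest increase and the 10 with the largest decrease among those called with and without control a, 1 symbol per library, with 0 drawn at 0.02 CPM. For Scd1 and Bcl6 control a lies with the other controls, and for Pnpla3 and Sult3a1 the groups overlap.

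Control a was placed between the diets gene by gene. Its position was set to 0 at the mean log2 CPM of controls b and 3 and to 1 at the mean of the 3 MCD libraries. Over the 1232 genes called without it, its median position was 0.902 (quartiles 0.580 and 1.22), 984 genes (79.9%) were at 0.5 or above, and 524 lay beyond the MCD mean. Of the 248 of them that were called with all libraries too, 92 were at 0.5 or above and 156 below (median 0.38), a split that depends on control a having been in the second fit. Higher and lower calls gave 79.9% and 79.8%. The other 2 controls were placed in the same way, each over the genes called without it. Control b was at 0.5 or above for 5 of 37 genes (13.5%, median -0.06) and control 3 for 34 of 95 (35.8%, median 0.29). These 37 and 95 genes were called in fits that held control a. Their shares and that of control a therefore rest on differently chosen genes and are not a like comparison. In the exon-bin files, which number the control libraries, control 1 was at 0.5 or above for 920 of the 1159 matching genes (79.4%). Of the 47 named genes that differed by 2-fold or more between columns a and b, 46 had the same order in the bin files 1 and 2, such as Srxn1, at 150 CPM in control 1 and 17.5 CPM in control 2. The exception was Peg3, at 4.59 and 15.7 CPM in columns a and b and at 14 and 9.78 CPM in files 1 and 2.

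**Figure D3:**
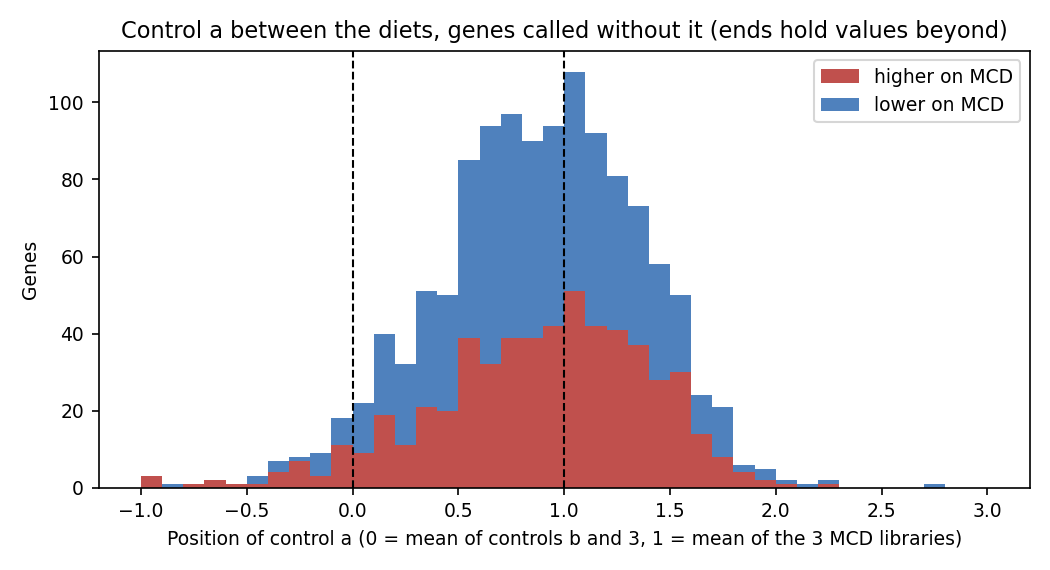
Number of genes by the position of control a, for the 1232 genes called with control a left out, stacked by direction. The x axis runs from the mean of controls b and 3 (0, dashed) to the mean of the 3 MCD libraries (1, dashed). The median is 0.902, so most genes lie near the MCD mean.

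Methionine metabolism held some of the changes that did not turn on control a. Mat2a, the catalytic subunit of the methionine adenosyltransferase that makes SAM in most tissues, and in liver beside the hepatocyte enzyme Mat1a, was at 69.7, 79.8 and 73.5 CPM in controls a, b and 3 and at 212, 166 and 183 CPM in MCD 1, 2 and 3. All 3 MCD libraries were above all 3 controls, and control a was the lowest of the controls. The change was 1.33 ± 0.17 (edgeR adjusted p = 0.00014) and 1.28 ± 0.20 without control a (edgeR adjusted p = 0.000366). Aldh7a1, a dehydrogenase that oxidises betaine aldehyde on the way from choline to betaine, fell from 291, 387 and 313 CPM to 221, 197 and 156 CPM (-0.80 ± 0.11, edgeR adjusted p = 0.000241; -0.94 without control a). Cbs, which takes homocysteine into cysteine synthesis, fell from 381, 434 and 365 CPM to 252, 292 and 251 CPM (-0.57 ± 0.12, edgeR adjusted p = 0.0168; -0.60 without control a). Its mean difference at the other times was -0.08, and the gap between CT08 and those times was not called (edgeR adjusted p = 0.166, and 0.53 without control a). Mat2a and Aldh7a1 stayed called whichever of the 6 libraries was left out, as did Fabp5, Peg3 and AA986860 in the gene table. By contrast, Bcl6, Plin4, Kcnd1, Adgrf1 and Serpina1e lost their call when any of the 6 other than control a was left out.

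Of 28 genes tested for methionine and choline metabolism, 1 rose and 2 fell with all libraries (0.548% of all genes rose and 0.751% fell), and 1 rose and 6 fell without control a (2.78% and 3.3% of all genes). The 6 lower calls were 3 when control b or MCD 2 was left out as well, 2 when control 3 was and 1 when MCD 3 was. The median of the list was -0.03 and -0.13, beside -0.01 and 0.00 over all genes, and its sign turned to 0.07 and 0.10 with library totals as the scale. Gnmt, the glycine methyltransferase that uses up SAM, was at 582, 961 and 1392 CPM in the controls and at 742, 486 and 248 CPM on MCD. It was not called with all libraries (-1.02 ± 0.33, edgeR adjusted p = 0.149) and was called without control a (-1.33 ± 0.34, edgeR adjusted p = 0.0175). The other 3 genes that fell only without control a were chosen for naming after their values were seen. Sardh, which oxidises sarcosine, Gamt, which makes creatine, and Inmt, a methyltransferase of amines, had changes of -0.86, -0.95 and -1.29, and of -0.54, -0.62 and -0.88 with it. Mat1a, the methionine adenosyltransferase of hepatocytes, was at 1821 to 4303 CPM and not called (0.04 ± 0.30, edgeR adjusted p = 0.969 without control a).

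Calls in the amino acid stress response appeared only without control a. None of its 28 genes was called with all libraries, and 5 rose and none fell without control a, beside 2.78% of all genes higher. The list's median was 0.30 and 0.70. The promoter windows of the 3 called genes that hold the letters TGATGNAA, the core of the element bound by ATF4 and its partners, are printed here because these genes carry the result. They come from RefSeq on build GRCm38.p6 and run from 250 bases before to 50 bases after the annotated start, 5′ to 3′ on the strand of the gene, with the match in capitals. Each match reads on the opposite strand.
Fgf21 promoter, chr7:45615441-45615740, minus strand: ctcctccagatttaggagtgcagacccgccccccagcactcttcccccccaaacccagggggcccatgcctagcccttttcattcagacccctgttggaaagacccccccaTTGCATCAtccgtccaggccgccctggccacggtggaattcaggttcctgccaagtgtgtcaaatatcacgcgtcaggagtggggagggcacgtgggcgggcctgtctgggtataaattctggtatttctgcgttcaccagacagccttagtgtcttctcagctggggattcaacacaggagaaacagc
Atf3 promoter, chr1:191183284-191183583, minus strand: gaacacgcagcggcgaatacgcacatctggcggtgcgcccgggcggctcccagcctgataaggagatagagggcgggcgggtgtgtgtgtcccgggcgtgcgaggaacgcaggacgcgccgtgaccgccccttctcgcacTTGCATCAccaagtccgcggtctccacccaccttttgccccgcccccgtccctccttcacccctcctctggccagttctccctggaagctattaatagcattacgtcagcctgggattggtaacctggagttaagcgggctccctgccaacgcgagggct
Nupr1 promoter, chr7:126625421-126625720, minus strand: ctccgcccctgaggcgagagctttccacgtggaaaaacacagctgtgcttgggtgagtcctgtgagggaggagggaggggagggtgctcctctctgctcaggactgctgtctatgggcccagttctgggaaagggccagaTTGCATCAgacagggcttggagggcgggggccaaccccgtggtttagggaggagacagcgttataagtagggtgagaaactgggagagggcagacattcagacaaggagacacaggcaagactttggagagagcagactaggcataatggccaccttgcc
The motif was searched on both strands of 300-base windows. It was in 1304 of 32851 promoters (3.97%), and in 9 of the 26 list members that had a window, or 9 of their 31 windows. The window of Gdf15 held no match. Asns, Slc7a11, Pycr1, Chac1, Trib3 and Vldlr also had a match and were not called without control a. A match is a string of letters and no measure of binding.

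Fgf21, a hormone that the liver releases in fasting and amino acid lack, was at 0.406 CPM in control b and 1.15 CPM in control 3, and at 14.8, 13.8 and 16.0 CPM in MCD 1, 2 and 3. Control a was at 16.7 CPM, above every MCD library, from 1692 counts against 19 in control b and 74 in control 3. The change was 1.33 ± 0.86 with all libraries (edgeR adjusted p = 0.58) and 4.19 ± 0.95 without control a (edgeR adjusted p = 0.00874). In the exon-bin files Fgf21 was at 12.7 CPM in control 1, 0.285 CPM in control 2 and 0.892 CPM in control 3. At the other 5 times Fgf21 was higher on MCD each time, with a mean of 5.20.

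Atf3, a stress-induced transcription factor, was at 9.66, 0.534 and 1.26 CPM in controls a, b and 3 and at 5.04, 10.2 and 7.36 CPM on MCD. Nupr1, a small chromatin protein of the stress response, was at 7.73, 1.15 and 1.01 CPM and at 5.74, 9.24 and 7.89 CPM. Gdf15, a hormone that lowers food intake, was at 10.5, 1.24 and 1.53 CPM and at 5.09, 4.73 and 6.65 CPM. For these 3 genes, control a was within or above the MCD libraries and the other 2 controls were below them all. Their changes were 0.91, 1.17 and 0.21 with all libraries and 3.15, 2.83 and 2.05 without control a (edgeR adjusted p = 0.00498, 0.0105 and 0.0121). Eif4ebp1, an inhibitor of cap-dependent translation, rose by 0.70 without control a (0.57 with it). Asns and Trib3, classic ATF4 targets, were not called, with 1.61 ± 0.83 and 0.38 ± 0.58 without control a and 0.85 and 0.42 with it. Limma with voom called 1 of the 28 genes without control a, and when control 3 was left out as well edgeR called 1, and when control b was left out as well none.

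Antioxidant genes followed the same division of libraries. Of 18 tested genes of glutathione, thioredoxin and metallothionein biology, none was called with all libraries, and 9 rose and none fell without control a, beside 2.78% and 3.3% of all genes. The median was 0.42 and 0.88, beside -0.01 and 0.00 over all genes. Windows of Srxn1 and Ugdh, the 2 called members with the largest changes among those with a match to TGACNNNGC, the core of the antioxidant response element, are shown for the same reason and in the same form.
Srxn1 promoter, chr2:152105274-152105573, plus strand: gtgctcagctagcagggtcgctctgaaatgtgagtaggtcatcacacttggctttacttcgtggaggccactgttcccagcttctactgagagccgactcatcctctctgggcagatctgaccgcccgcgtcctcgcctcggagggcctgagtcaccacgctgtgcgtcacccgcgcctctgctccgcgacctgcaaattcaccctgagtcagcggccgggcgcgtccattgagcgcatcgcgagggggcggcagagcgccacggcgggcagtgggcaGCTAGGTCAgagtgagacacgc
Ugdh promoter, chr5:65435793-65436092, minus strand: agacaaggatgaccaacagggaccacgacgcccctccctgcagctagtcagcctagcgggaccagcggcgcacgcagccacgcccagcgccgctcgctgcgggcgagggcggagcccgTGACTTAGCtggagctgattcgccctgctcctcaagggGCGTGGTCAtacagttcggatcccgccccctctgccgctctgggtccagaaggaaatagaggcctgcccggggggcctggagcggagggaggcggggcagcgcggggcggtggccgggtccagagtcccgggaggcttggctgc
These letters are common: 4071 of 32851 windows (12.4%) held them on either strand, as did 6 of the 13 list members with a window, or 6 of their 19 windows. The match of Srxn1 begins 28 bases after the start, and Ugdh has 2 matches, 1 on each strand. No match was found in the windows of Nqo1, Gsta2 and Gstm1.

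Srxn1, which repairs oxidised peroxiredoxins, was at 26.1 and 24.7 CPM in controls b and 3, at 116, 135 and 204 CPM on MCD and at 219 CPM in control a. It rose by 2.57 ± 0.38 without control a (edgeR adjusted p = 0.000221), against 0.80 ± 0.53 with all libraries (edgeR adjusted p = 0.594). Ugdh, which makes the sugar used for glucuronidation, was at 75.1 and 82.6 CPM in controls b and 3, at 203, 256 and 259 CPM on MCD and at 297 CPM in control a (1.62 ± 0.19 without control a and 0.65 ± 0.31 with it). Gsta2 and Gstm1, glutathione transferases, were at 35.0 and 1777 CPM in control a, and at no more than 20.9 and 1720 CPM in any MCD library. Without control a, Gsta2 rose by 2.42 and Gstm1 by 1.41, against values of 0.45 and 0.61 with it. Nqo1, a quinone reductase, rose by 1.60 without control a (edgeR adjusted p = 0.0188) and had a value of 0.70 with it. The remaining calls, Gclc, Gpx4, Gsr and Txnrd1, were between 0.50 and 0.93 on the log2 scale, and between 0.24 and 0.53 with control a. The metallothioneins Mt1 and Mt2 were not called, with 1.85 ± 1.10 and 2.36 ± 1.39 without control a. The count of 9 was 7 when control 3 was left out as well and 6 when control b was. With a term for the kind of library by mt-Nd6 the antioxidant count stayed at 9 and the amino acid stress count was 4.

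**Figure D4:**
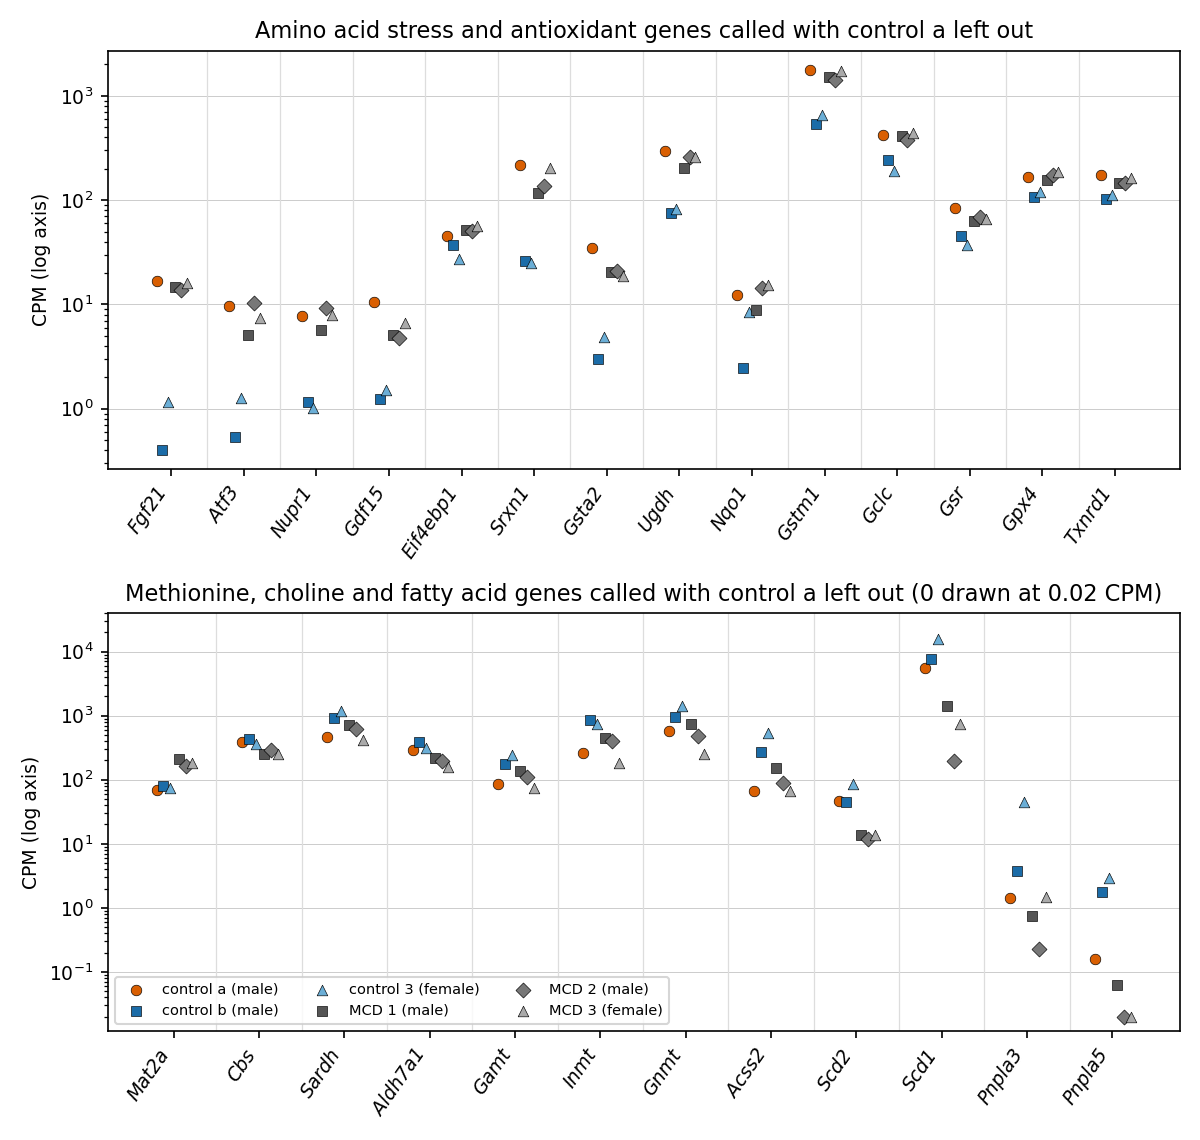
CPM (log axis) of the list members called with control a left out, 1 symbol per library, with 0 drawn at 0.02 CPM. For Fgf21, Srxn1 and Ugdh control a is above all MCD libraries, while for Mat2a, Cbs and Scd2 it lies with controls b and 3.

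Genes of lipid synthesis and storage were compared by list. Of 22 genes of the fatty acid synthesis list, which also holds the lipases Pnpla3 and Pnpla5, 4 fell with all libraries (Scd1, Scd2, Pnpla3 and Pnpla5) and 5 without control a, where Acss2 joined them, and none rose, beside 0.751% and 3.3% of all genes lower. The 5 lower calls were 2 when control 3 was left out as well and 9 when MCD 1 was. The median was -0.57 and -0.73. Scd2, another desaturase, fell from 46.7, 45.2 and 86.0 CPM to 13.6, 11.9 and 13.5 CPM (-2.15 ± 0.44, edgeR adjusted p = 0.0132; -2.25 without control a). In the exon-bin files it was at 16.6, 10.7 and 14.4 CPM in controls 1, 2 and 3 and at 6.08, 7.26 and 7.07 CPM on MCD, and was not called there (-1.03, edgeR adjusted p = 0.276). Fasn, the fatty acid synthase, varied within both groups, from 592 to 5566 CPM in the controls and from 345 to 2685 CPM on MCD, and was not called (-0.97 ± 0.85 without control a, edgeR adjusted p = 0.588).

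Plin5 and Plin4, perilipins that coat lipid droplets, were the 2 of 17 lipid droplet genes that rose with all libraries, beside 0.548% of all genes. Plin5 was at 46.6, 22.6 and 25.4 CPM in the controls and at 85.9, 69.0 and 102 CPM on MCD (1.43 ± 0.26, edgeR adjusted p = 0.00673), and the change was 1.85 ± 0.26 without control a. Plin4 was at 16.0, 2.90 and 6.34 CPM and at 35.0, 51.8 and 66.6 CPM (2.46 ± 0.58, edgeR adjusted p = 0.0316), and the change was 3.68 ± 0.62 without control a (edgeR adjusted p = 0.000811). Control a was the highest control for both, about midway in log2 terms (positions 0.53 and 0.54). Without it 5 genes rose, Cidec, Plin2 and Plin3 in addition, and Cideb fell, beside 2.78% of all genes higher and 3.3% lower. With library totals as the scale 9 rose and 0 fell without control a, beside 1929 and 319 of all 20249 genes. The 5 higher calls were 3 when control b, control 3 or MCD 3 was left out as well. Cidec, which fuses lipid droplets, was at 0.534 and 0.592 CPM in controls b and 3, at 10.1, 23.0 and 41.5 CPM on MCD and at 27.5 CPM in control a. Its change of 5.46 ± 0.78 (edgeR adjusted p = 0.00016) was 1.28 ± 0.89 with control a (edgeR adjusted p = 0.619). Plin2 rose by 1.19 without control a, against a value of 0.89 with it.

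Targets of PPAR alpha, the nuclear receptor that drives fatty acid oxidation, counted 1 call of 26 with all libraries (Cyp4a31) and 5 without control a, all higher, beside 0.548% and 2.78% of all genes. With library totals as the scale the second count was 12, and it was 1 when control b was left out as well and 3 when control 3, MCD 2 or MCD 3 was. With library totals as the scale and without control a, 1929 of all 20249 genes were higher. The list's TMM-scaled median was 0.41 and 0.48. Cyp4a31, a fatty acid hydroxylase, was at 28.2, 7.73 and 33.7 CPM in the controls and at 78.9, 133 and 173 CPM on MCD (2.49 ± 0.53, edgeR adjusted p = 0.0165; 3.01 ± 0.62 without control a). Acot2, a mitochondrial thioesterase, Cd36, a fatty acid transporter, Vnn1, a pantetheinase, and Ucp2, a mitochondrial carrier, rose by 2.49, 1.69, 1.21 and 1.16 without control a, with values of 0.83, 0.84, 1.18 and 0.73 with it. For Vnn1 and Cd36 the 3 MCD libraries and the 2 controls still overlapped. No gene of this list was called in the fit without a sex term and without control a.

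Cholesterol and bile acid genes were called only without control a. Of 24 genes of cholesterol synthesis and uptake 3 fell: Tm7sf2, Sc5d and Ebp, late enzymes of the pathway, with changes of -1.74, -0.91 and -0.81 on the log2 scale, and -1.34, -0.66 and -0.62 with control a. Of all genes 3.3% fell. With library totals as the scale 2 genes of the list rose and 2 fell, beside 1929 and 319 of all 20249 genes. The 3 lower calls were 0 when control 3 was left out as well and 1 when control b or MCD 3 was. In control a they were at 30.4, 371 and 101 CPM, against 24.7 to 36.4, 328 to 437 and 82.6 to 98.5 CPM on MCD. The list's median was 0.16 with all libraries and -0.21 without control a, and 0.03 with library totals as the scale. Of 22 bile acid genes Abcc3, an export pump, rose by 1.08 and Slc27a5 and Cyp27a1, enzymes of bile acid conjugation and synthesis, fell by 1.24 and 0.72, beside 2.78% of all genes higher and 3.3% lower. With control a these values were 0.78, -0.92 and -0.40, and none of the list was called when control 3 was left out beside control a. Cyp7a1, which sets the rate of bile acid synthesis, ranged from 20.1 to 503 CPM in the controls and from 153 to 163 CPM on MCD and was not called (edgeR adjusted p = 0.975).

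**Figure D5:**
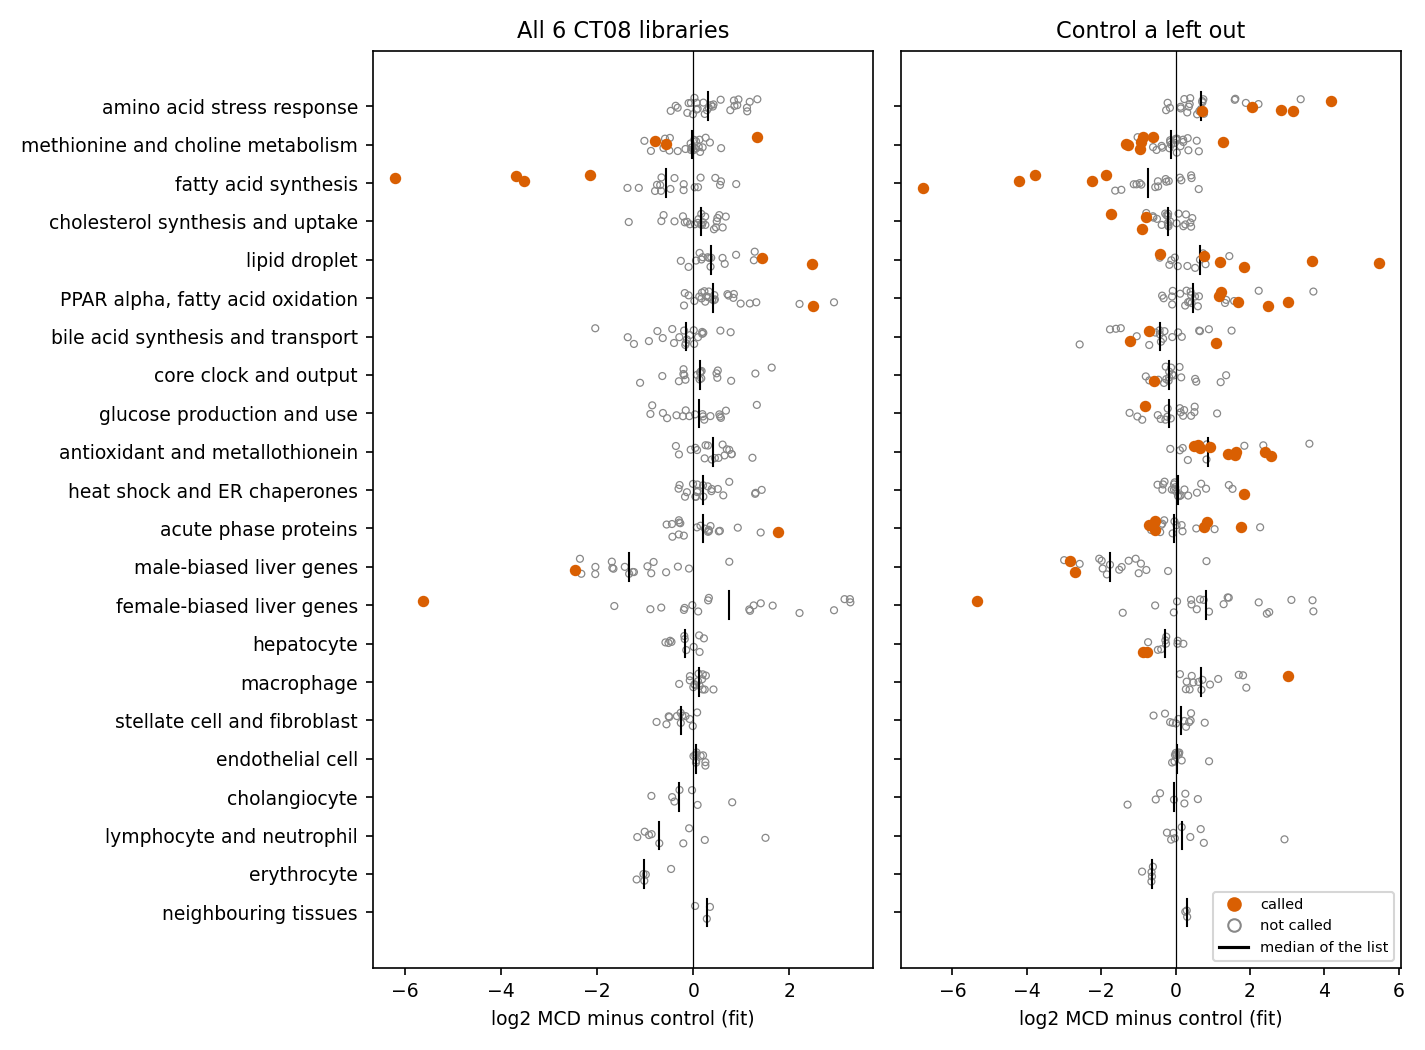
Fitted log2 difference, MCD minus control, of every tested member of the 22 gene lists (points, filled where called, with the vertical bar at the list's median), with all 6 libraries (left) and without control a (right). The antioxidant list has no filled point on the left and 9 on the right, and the fatty acid synthesis list has 4 and 5.

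Clock genes did not pass the test with all libraries, and 1 of 19 did without control a, near the 6.08% of all genes. Cry2, a repressor of the clock, was at 31.3, 74.7 and 49.3 CPM in the controls and at 45.6, 47.4 and 33.2 CPM on MCD (-0.58 ± 0.16 without control a, edgeR adjusted p = 0.031; -0.30 with it). Per1 was at 24.9, 35.6 and 30.0 CPM in the controls and at 55.8, 84.3 and 83.9 CPM on MCD, without overlap, but the fit gave 1.29 ± 0.57 (edgeR adjusted p = 0.328; 1.21 without control a). Ciart, another clock repressor, was at 5.63, 9.40 and 12.5 CPM and at 21.3, 39.6 and 23.2 CPM (1.63 ± 0.49, edgeR adjusted p = 0.102; 1.36 without control a). Groups without overlap were found for 2674 of all genes tested (13.2%) with 3 controls and for 7147 (35.3%) with 2. Control a was the lowest of the 6 libraries for 12 of the 19 clock genes, Per1, Per2, Per3, Dbp, Tef and Hlf among them. By the root mean square log2 distance over the 19 clock genes to the mean of each group of diet and time, control a was nearest to MCD at CT04 (0.759) and next to its own group (0.942). Controls b and 3 were nearest to MCD at CT08 (0.764) and control at CT12 (0.780), and the 3 MCD libraries to a CT08 group (0.430 to 0.506). Control a, and the library itself, were left out of the group means. The own group of control b was thus control 3 alone, and the reverse, at a distance of 1.12. That is a distance to 1 library while the others are to means of several, so the 2 kinds are not alike.

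Acute phase proteins were examined next. With all libraries 1 of 20 was called (Apcs), beside 1.3% of all genes, and without control a 3 rose and 3 fell, beside 2.78% and 3.3%. Hp and Hpx, which bind free haemoglobin and haem, rose by 0.84 and 0.77 without control a (0.55 and 0.32 with it). Control a was at 2476 and 5188 CPM against 1338 to 1351 and 2201 to 2260 CPM in the other controls. The 3 fibrinogen chains fell, with Fgg at -0.72, Fgb at -0.57 and Fga at -0.56, and at -0.55, -0.43 and -0.44 with control a, where none was called. The 3 lower calls of the list were 1 when control 3 was left out as well and 0 when MCD 3 was, and no gene of the list was called either way when control b was. Saa1 and Saa2, the acute serum amyloids, were not called. Of 21 heat shock and endoplasmic reticulum chaperones Hspb1 rose by 1.85 without control a (1.42 with it), and of 18 genes of glucose metabolism Pygl, glycogen phosphorylase, was at -0.82 (-0.55 with it). These single calls are near the shares over all genes, 2.78% higher and 3.3% lower.

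Markers of the cell types in liver were compared in each library. Hepatocyte markers summed to 93644 CPM in control a and to 96260 to 125757 CPM in the others. Of 11 hepatocyte markers none was called with all libraries, and 2 fell without control a, Serpina1a by 0.77 and Serpina1c by 0.88, beside 3.3% of all genes. In bulk liver, fewer cells of a type and less RNA per cell cannot be told apart. The 15 macrophage markers summed to 892 CPM in control a, 415 and 551 in controls b and 3 and 565 to 751 on MCD. Their median change was 0.11 with all libraries, with 12 of 15 above 0, and 0.69 without control a, with 15 of 15 above 0. DESeq2 called 3 of them higher without control a, beside 891 of all 20249 genes. Stellate and fibroblast markers summed to 699 CPM in control a and 370 to 462 in the other five, and lymphocyte and neutrophil markers to 13.7 and 4.21 to 7.74 CPM. Without control a edgeR called 6.08% of all genes, and none of the macrophage, stellate, endothelial, bile duct, blood and neighbouring tissue markers but Marco. None of these markers was called with all libraries. Marco, a scavenger receptor of macrophages, changed by 3.02 ± 0.70 without control a (edgeR adjusted p = 0.0104), against 0.26 with it. It was at 50.2 CPM in control a, 2.07 and 4.44 in controls b and 3, and 12.8, 30.2 and 30.1 CPM on MCD, and was not called when control b or control 3 was left out as well. The part of these cells in the changes above was not tested.

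Abundant transcripts of the secretory liver were examined on both sides of position 0.5, as the 5 most abundant genes called without control a with a change of at least 1. On the MCD side were Mup3, Mup17, Serpina3k, Apoa4 and Gstm1. Mup3, a major urinary protein, was at 1739 CPM in control a, 10264 in control b, 2246 in control 3 and 1929, 875 and 324 CPM on MCD, with a change of -2.36 with all libraries and -2.84 without control a. Apoa4, an apolipoprotein, was at 1580, 264 and 727 CPM in the controls and at 1126, 2658 and 3295 CPM on MCD (2.44 ± 0.57 without control a and 1.36 ± 0.55 with it). On the control side were Scd1, Serpina1e, Osgin1, Ces3a and Neat1. Neat1, a nuclear long non-coding RNA, was at 240, 207 and 226 CPM in the controls and at 407, 800 and 405 CPM on MCD, and was called with all libraries (1.24 ± 0.32, edgeR adjusted p = 0.0477; 1.25 without it). Serpina1e, a male-biased protease inhibitor, was at 3948, 9712 and 1286 CPM in the controls and at 1064, 790 and 407 CPM on MCD (-2.46, and -2.70 without control a). In the exon-bin sums of all libraries its change was larger, at -4.5 (edgeR adjusted p = 0.0117).

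Whether the diet effect at CT08 differed from its mean over the other 5 times was tested in the same fit. With all libraries 12 genes (0.0593%) were called, 6 higher and 6 lower at CT08, and 2676 had an unadjusted p under 0.05. Without control a edgeR called 0, with 1205 at an unadjusted p under 0.05, DESeq2 called 36 and limma 4. The count with all libraries was 258 without control 3, 17 without control b and 1 to 5 without an MCD library. Cxcl10, a chemokine, was at 9.93, 2.52 and 3.29 CPM in the controls and at 4.68, 6.11 and 7.86 CPM on MCD, with a diet difference of 0.19 at CT08 (1.13 without control a) and a mean of 2.47 at the other times. Hnrnpll, an RNA-binding protein of splicing, was at 29.9, 29.1 and 28.2 CPM in the controls and at 40.6, 43.4 and 39.9 CPM on MCD, with control a among the controls. Its difference was 0.51 ± 0.11 at CT08 (edgeR adjusted p = 0.0204; 0.52 without control a) and -0.16 on average at the other times. In the exon-bin sums its CT08 difference was 0.53 and not called (edgeR adjusted p = 0.0515).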

How the data were processed

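The authors deposited 1 table of raw read counts per gene for 36 liver libraries, and files of raw counts per exon bin, of which 34 were used (2 others end early). Per the submitters' processing notes, Trimmomatic, HISAT2, StringTie and DESeq2 were used with build GRCm39; tool versions, filters and the strand setting were not given in the sources used here. Each column used carried a sample's name, except that 2 control columns of CT08 share a name and were given their group only. Totals ran from 52.6 to 86.7 M counts per library, and no pair of CT08 replicates agreed within sampling noise (chi-square per degree of freedom of 97.9 or more).

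Counts were fitted with edgeR 4.0.16 (R 4.3.3; TMM, filter at a minimum count of 10, robust quasi-likelihood F test, Benjamini-Hochberg adjustment over all 20249 genes) with 12 groups and a sex term over all 36 libraries. Where control a was left out, the 2 controls left are assumed to vary like the other groups. SE is that implied by the F test. Limma 3.58.1 and DESeq2 1.42.0 were alternatives. On simulated counts for this comparison over 20249 genes, 68% of genes changed by 1 and 91% of those changed by 2 on the log2 scale were called, with 4.22% false calls. Those counts were drawn from the fitted group means with 1 dispersion per gene, and the changed genes had a mean of at least 1 CPM. No simulated control stood apart as control a did, so these shares do not carry over to the calls above.

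Named genes are the 10 largest changes each way called with and without control a, at least 1 CPM in the higher diet, without predicted Gm and Rik names, up to 4 called members per list, Mat2a, Gnmt, Aldh7a1, Fgf21 and the clock genes, up to 5 genes each way against the other times (4 higher and 5 lower) and the 5 most abundant genes on each side of position 0.5; any other gene was chosen after its values were seen. Members and lists were chosen with earlier results of these data known. Of 89 named genes, 33 overlap a gene on the other strand in GENCODE M21 (GRCm38), Mat2a, Aldh7a1, Bcl6, Plin4 and Pnpla3 among them. Promoter windows are from RefSeq on GRCm38.p6, another build than that of the counts.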

Additional observations from a re-analysis of the deposited data

Results flagged for a closer look

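The diet effect at CT08 differed from its mean over the other 5 times in the edgeR test with all libraries for 9 named genes. The difference on the log2 scale was -2.27 for Cxcl10, -0.84 for Ddx28, -0.57 for Poglut1, -0.74 for Dusp16, 0.77 for Vgll4, 2.02 for Exd1, 1.56 for Rgs3 and 0.66 for Hnrnpll. For Sprr1a, a cornified envelope protein gene, it was -10.23, a fitted value that rests on libraries near 0 counts. Sprr1a was at 13.8, 0.128 and 0.265 CPM in controls a, b and 3 and at 1.66, 1.94 and 2.76 CPM on MCD. None of the 9 was called without control a, where the adjusted p of edgeR was 0.0725 for Exd1, 0.111 for Dusp16 and 0.112 for Hnrnpll. Exd1 was at 1.54, 1.81 and 1.82 CPM in the controls and at 2.71, 3.58 and 2.38 CPM on MCD, higher in 3 of 3 MCD libraries. Of all genes, 13.2% had no overlap between the groups. The diet difference of Exd1 at CT08 was not called (0.72, edgeR adjusted p = 0.201, and 0.58, edgeR adjusted p = 0.27, without control a). It was negative at each of the 5 other times.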

How the results depend on the processing

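The 263 calls at CT08 became 651 with DESeq2, 140 with no sex term and 0 with the 6 CT08 libraries alone (1214 at an unadjusted p under 0.05), or 105 with those alone and control a left out. Exon-bin sums gave 172 with no replicate block and 154 with the replicate block. Leaving out 1 library each gave 37 to 1232 calls. The 1232 calls without control a became 2248 with library totals, 1865 with DESeq2 and 778 with no sex term (all chosen after seeing the data), and 368 to 1068 when another CT08 library was also left out. The 12 genes that differed from the other times became 46 with library totals, 244 with DESeq2, 5 with no sex term and 0 to 258 when 1 library was left out, and without control a the 0 became 36 with DESeq2, 4 with limma and 0 to 5 when another library was also left out. The value of Sprr1a at CT08, -1.03, ranged from -1.73 without control 3 to 3.39 without control a when 1 library was left out, and turned to 3.56 with the 6 libraries alone and control a left out and to 0.66 with limma.

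Whether replicate numbers pair the samples was not settled. In the exon-bin files, deviations from the diet mean of same-numbered controls and MCD libraries had correlations of -0.10, 0.41 and 0.23 over 12409 genes. Those of unlike number ran from -0.65 to 0.34. The control mean held control 1, so these values cannot decide it. The replicate block gave 228 and 225 calls in the 2 possible orders of a and b and 4 genes each against the other times. Without control a it gave 1088 and 1135. Of the 89 named genes, the setting without control a moved 36 past the threshold and turned 1. The cause was not tested.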

Other observations

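Sex-biased liver genes were read within the males, which the comparison above adjusts for but does not separate. The 20 female-biased genes summed to 56.2 CPM in control b, 636 CPM in control a, and 1266 and 2342 CPM in the males MCD 1 and 2, against 7716 and 8303 CPM in the females control 3 and MCD 3. Cyp2b9, a female-biased cytochrome, was at 5.77 and 0.192 CPM in control males a and b and at 24.3 and 154 CPM in MCD males. The 19 male-biased genes summed to 11481 and 35539 CPM in control males a and b and to 8470 and 5673 CPM in the MCD males. Cyp2b9 was chosen after its values were seen, and with 2 males per diet no test was made. In the fit of all libraries 1 of 19 male-biased genes fell (Serpina1e) and 1 of 20 female-biased genes fell (Sult3a1), beside 0.751% of all genes, with list medians of -1.33 and 0.74. Without control a 2 male-biased genes (Mup3 and Serpina1e) and 1 female-biased gene fell, beside 3.3% of all genes, with medians of -1.76 and 0.83.

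The 5 erythrocyte genes summed to 362, 299 and 148 CPM in controls a, b and 3 and to 137, 184 and 93.7 CPM on MCD, and none was called.

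Angptl8, a hormone of lipid metabolism that rises on feeding, was one of the 15 genes called only with control a, at an edgeR adjusted p of 0.0422 and 0.0586 without it, with changes of 2.80 and 2.68. These 15 genes had adjusted p-values of 0.0509 to 0.103 without control a.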
